A study of Mus musculus with 12 samples.

Results

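Cadherins and protocadherins are membrane proteins that bind their like on neighbouring cells. The genes described here are those whose symbol in the array's annotation is Cdh followed by digits, or begins with Pcdh, without Cdh5, and only probe sets annotated to 1 gene were read. This gave 55 genes on 99 probe sets, of 18193 genes on 45101 probe sets in all. They comprise 20 cadherins, 23 clustered protocadherins and 12 non-clustered protocadherins. The clustered ones are Pcdhb genes and, of the Pcdhg genes, only Pcdhgc4, from arrays of genes that lie side by side in the genome. A classical cadherin holds cells together through its calcium-binding outer domains, and its tail is tied to actin by beta-catenin, alpha-catenin and p120-catenin. Clustered protocadherins have variable outer domains and are known mainly from neurons, where different cells use different members. In the fetal testis E-cadherin (Cdh1) is known from germ cells and N-cadherin (Cdh2) from Sertoli cells, the cells that enclose them.

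The study measured total RNA of testes from E15.5 mouse embryos, a stage of late gestation, on 12 Affymetrix arrays, 3 for each of 4 groups: Dmrt1 knockout 129Sv, wild type 129Sv, Dmrt1 knockout B6 and wild type B6. Dmrt1 is a transcription factor of germ cells and Sertoli cells, and its loss is known to lead to testicular teratomas in 129Sv mice. The samples are labelled knockout although the series is described as a conditional one, and the labels name no Cre driver. They also name P28 in one protocol beside E15.5 elsewhere, and do not say whether the arrays came from separate animals, so p-values measure the spread between these arrays, which may be technical.

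Values are intensities on a linear scale, summarised by the authors with GCRMA, and have no unit. A gene with several probe sets was represented by the one with the highest mean, and intensities of different probe sets were not set against each other. A gene was tested if it reached an intensity of 16 on 3 or more arrays, and 12726 genes did. Of the 55 cadherin and protocadherin genes, 30 passed: 12 cadherins, 10 clustered and 8 non-clustered protocadherins. The 25 that did not pass were Cdh7, Cdh8, Cdh9, Cdh17, Cdh18, Cdh19, Cdh22, Cdh23, Pcdh1, Pcdh10, Pcdh15, Pcdh20 and 13 Pcdhb genes, with intensities between 2.42 and 17.14. Just outside the limit were Pcdhb15 with a highest value of 17.14 and Pcdh10 with 16.9, each above 16 on 1 array. All differences below are log2 differences with their standard error from 1 limma fit of the 4 group means to all 12 arrays, and a gene was called where its Benjamini-Hochberg adjusted p, taken over the 12726 genes, was under 0.05. Bulk intensities cannot tell apart fewer cells of a type and less RNA per cell.

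Dmrt1 itself read 145 to 181 in 129Sv knockout testes against 924 to 1183 in 129Sv wild type, and 64.0 to 86.4 in B6 knockout against 795 to 1092 in B6 wild type. Array medians lay between 17.34 and 19.0, and arrays of 1 group correlated at 0.983 to 0.998 over all probe sets. The Actb 3′/5′ ratio, which rises as RNA is degraded, was 6.30 on B6 knockout replicate 3, 5.24 on 129Sv knockout replicate 1, 3.91 on 129Sv wild-type replicate 2 and 1.99 to 2.79 on the other arrays. B6 knockout replicate 3 stood apart. It was the highest of the 12 arrays for 24.0% of all tested genes and for 11 of the 30 cadherin and protocadherin genes. Several results that rest on this array, but not all, are given with and without it. Leaving it out moved the B6 knockout difference by over 1.5 times for 21 of the 30 members and turned the sign for 4 (Cdh3, Pcdh19, Pcdhb22 and Pcdhgc4, none of them called in B6). Where a difference is small, a small shift passes this ratio, and the share of all genes was not counted. The median B6 difference of the 30 members was 0.175 with this array and 0.177 without it. The number before the strain name in the sample titles was the same for the 129Sv knockout arrays and 129Sv wild-type replicate 2 and differed for the other 129Sv wild types, so it is partly confounded with genotype. With it as a covariate, the 129Sv wild-type mean rests on replicate 2 alone. That array held the lowest Cdh13 value of the 12 (10.7), so the Cdh13 call under this covariate rests on it. With that number as a covariate 347 genes were called in 129Sv knockout, against 1058 without it, and the 129Sv knockout calls of Cdh15, Ctnna2, Nectin1, Clstn3, Snai1, Snai3 and Ovol2 described below were lost, while those of Cdh1 and Cdh13 were kept. The title of B6 wild-type replicate 3 holds no such number, while those of the other B6 arrays do. Without that array 431 genes were called in B6 knockout, against 1005 with it. Leaving out B6 knockout replicate 3 instead gave 791 in B6 knockout and raised the calls in 129Sv knockout from 1058 to 1562. It also raised those between the strains in wild type from 2054 to 2857, as all arrays share 1 estimate of the spread. Summed intensities of the germ cell markers (5 of 8 on the array) were 12428 to 15873 in 129Sv knockout against 14071 to 14593 in 129Sv wild type, and 5504 to 9020 in B6 knockout against 10764 to 12197 in B6 wild type. The Sertoli cell markers (8 of 8) summed to 13657 to 16358 in 129Sv knockout against 17030 to 18306 in wild type, and to 16438 to 17961 in B6 knockout against 18322 to 19620 in wild type. The neuron and glia markers (5 of 7) summed to 281 to 375 in 129Sv knockout against 218 to 254 in wild type, and to 330 to 349 in B6 knockout against 181 to 248 in wild type. The part of these cell types in the results below was not tested.

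In the knockout testes Cdh1 was the member with the largest difference, higher in both strains. Cdh13 was higher and Cdh15 lower in 129Sv knockout testes, and Cdh6 was higher when the 2 strains were averaged. In 129Sv, 3 of the 30 tested members were called, 2 higher and 1 lower, where 8.31% of all tested genes were called (4.07% higher, 4.24% lower). In B6, 1 of 30 was called, Cdh1, where 7.90% of all genes were called (2.45% higher, 5.45% lower). Averaged over the strains, 4 of 30 were called (Cdh1, Cdh13 and Cdh6 higher, Cdh15 lower), where 13.5% of all genes were called. The shares of members called, 10%, 3.33% and 13.3%, lay near those of all genes. The median difference of the 30 members was 0.07 in 129Sv and 0.18 in B6, against −0.01 and 0.03 over all tested genes. The knockout and wild-type arrays did not overlap for 7 of 30 members in 129Sv (28.8% of all genes) and for 8 of 30 in B6 (27.7% of all genes).

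**Figure D1:**
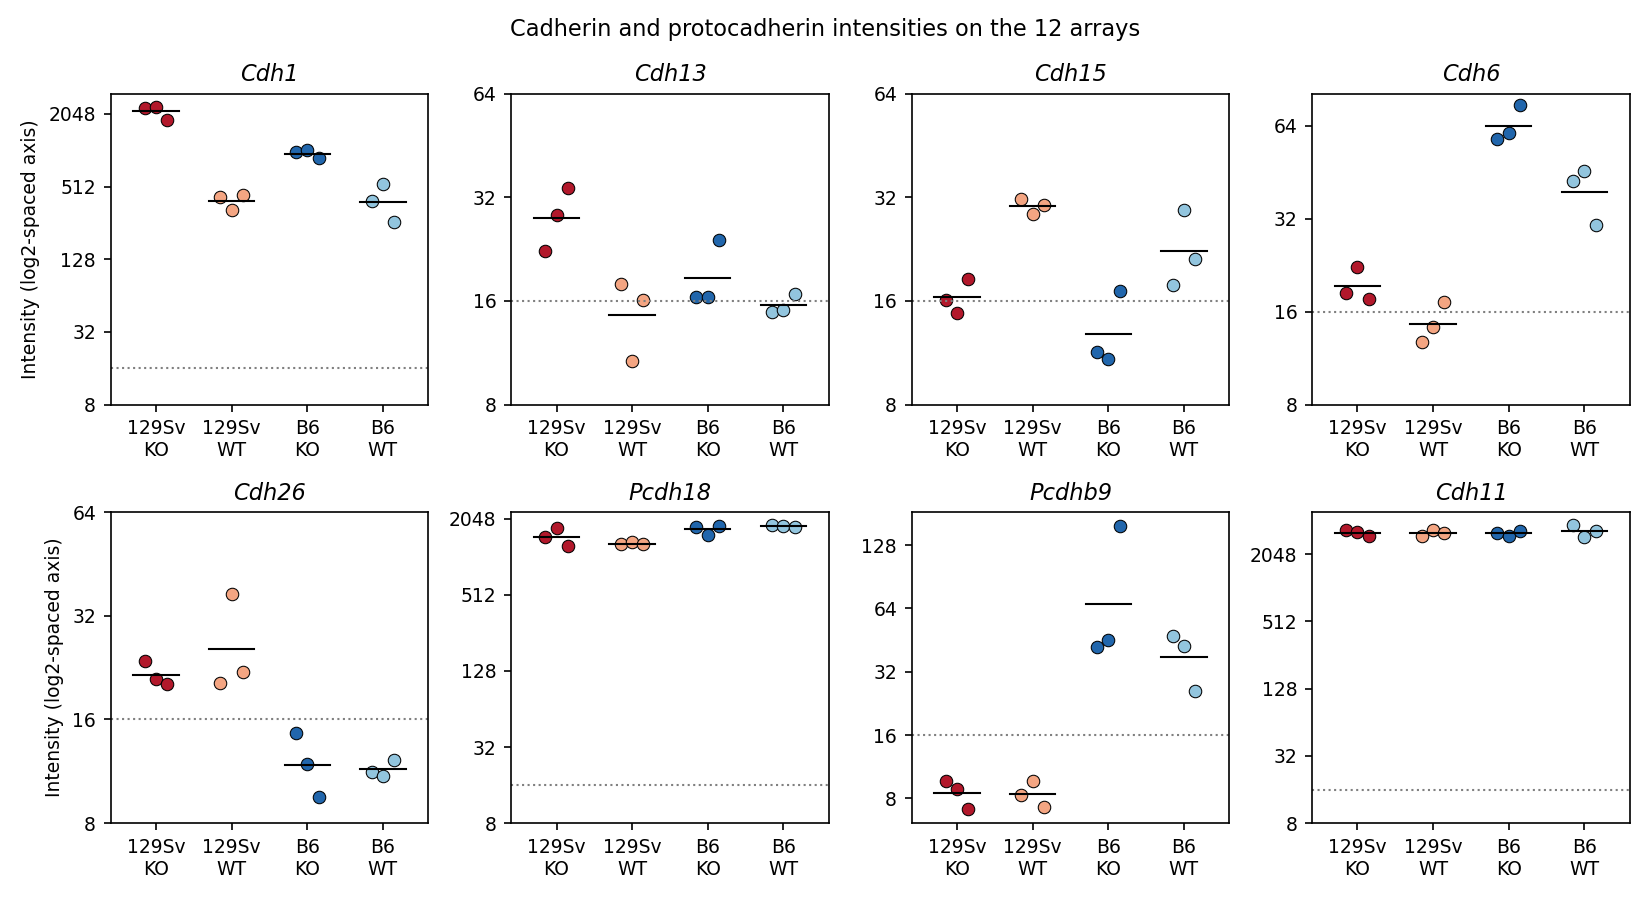
Intensity (log2-spaced axis) of 8 cadherin and protocadherin genes on each of the 12 arrays, with 129Sv knockout, 129Sv wild type, B6 knockout and B6 wild type from left to right. Points are arrays, bars are means of log2 values and the dotted line marks an intensity of 16. Cdh1 lies between 1835 and 2358 in 129Sv knockout and between 876 and 1030.2 in B6 knockout, above all wild-type arrays (261 to 540 in both strains), while the Cdh11 groups overlap.

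Cdh1, E-cadherin, which joins epithelial cells and germ cells to each other, read 2288, 2358 and 1835 in 129Sv knockout testes, against 421, 326 and 439.5 in 129Sv wild type. It read 991, 1030.2 and 876 in B6 knockout testes, against 393, 540 and 261 in B6 wild type. Each knockout array was above every wild-type array, and every 129Sv knockout array was above every B6 knockout array, while the wild-type arrays of the 2 strains overlapped. The mean was 2160.5 ± 284 in 129Sv knockout and 395 ± 61.2 in 129Sv wild type (SD, n = 3 each), a 5.48-fold difference (log2 2.45 ± 0.21, limma adjusted p = 4.67e-06). In B6 the mean was 966 ± 80.2 in knockout and 398 ± 139 in wild type (SD, n = 3 each), a 2.53-fold difference (log2 1.34 ± 0.21, limma adjusted p = 0.00122). Cdh1 has 1 probe set on the array.

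The knockout effect on Cdh1 was larger in 129Sv than in B6 by 1.12 ± 0.30 on the log2 scale, with a 95% interval of 0.47 to 1.76. The difference of the effects had an unadjusted p of 0.0021 in the limma fit and did not pass over all genes (adjusted p = 0.0877). Without B6 wild-type replicate 3, which had the lowest Cdh1 value, the difference was 1.39 (adjusted p = 0.0220). No member was called in this comparison, where 1.31% of all genes were called, and 2 of 30, Cdh1 and Pcdh12, had an unadjusted p under 0.05, as did 16.3% of all genes. Within knockout testes Cdh1 was 2.23-fold higher in 129Sv than in B6 (log2 1.16 ± 0.21, limma adjusted p = 0.000908). Within wild type the strains differed by 0.04 ± 0.21, with a 95% interval of −0.41 to 0.49. The germ cell marker sums given above overlapped between knockout and wild type in 129Sv and lay lower in knockout than in wild type in B6. Between strains within knockout they ran the same way as Cdh1, with 12428 to 15873 in 129Sv against 5504 to 9020 in B6. There 5 of the 5 markers were called higher in 129Sv, as were 2585 of the 12726 tested genes. The part of germ cells in the Cdh1 values was not tested. The mesonephric epithelium markers (5 of 7 on the array) summed to 898 to 1376 in 129Sv knockout against 780 to 1029 in wild type, and to 1343 to 1520 in B6 knockout against 1100 to 1487 in wild type. These sums are nearly all Emx2, which read 697 to 1458, while Pax8 read at most 84.2 and Gata3, Wnt9b and Wnt7b were below 16 on all arrays.

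The probe sets that represent Cdh2 and Cdh11 were not called in any comparison. Cdh2, N-cadherin, read 1208, 827 and 1018 in 129Sv knockout against 915, 875 and 1195 in 129Sv wild type (log2 difference 0.03, 95% interval −0.29 to 0.35). In B6 it read 870.1, 953 and 901 in knockout against 1098, 959 and 962 in wild type (−0.15, interval −0.47 to 0.18). The 3 B6 knockout values lay below the 3 wild-type values, and the difference was not called (limma adjusted p = 0.567). Cdh11, the cadherin of mesenchymal cells, averaged 3209 ± 195 in 129Sv knockout and 3171 ± 193 in 129Sv wild type, and 3158 ± 180.5 in B6 knockout and 3325 ± 407 in B6 wild type (SD, n = 3 each). Its intervals, −0.20 to 0.23 in 129Sv and −0.28 to 0.14 in B6, were the narrowest of the 30 members. A second Cdh11 probe set, fitted with all probe sets, was called between the strains in wild type: it averaged 1210.5 ± 53.8 in 129Sv and 1801 ± 107 in B6 (SD, n = 3 each; −0.57 ± 0.13, limma adjusted p = 0.0104). The probe set that represents Cdh11 differed there by −0.06 ± 0.10, so the 2 disagree, and with the mean of the probe sets Cdh11 was called. In both knockout comparisons neither probe set was called.

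Cdh3, P-cadherin, an epithelial cadherin whose gene neighbours Cdh1 in the RefSeq annotation, read 59.3, 43.6 and 46.9 in 129Sv knockout against 28.4, 44.5 and 31.8 in wild type. The groups overlapped, and the difference of 0.53 ± 0.23 was not called (limma adjusted p = 0.201). In B6 it differed by 0.06 ± 0.23. Cdh13, T-cadherin, which is anchored by a lipid and has no tail to bind catenins, read 22.4, 28.5 and 33.9 in 129Sv knockout against 17.9, 10.7 and 16.1 in wild type. It was at least 1.74-fold higher in knockout (fitted log2 difference 0.94 ± 0.25, limma adjusted p = 0.0282), where "at least" means that a group mean under 16 was set to 16. The call was lost without 129Sv knockout replicate 2 or 3 or without 129Sv wild-type replicate 2 or 3, with adjusted p up to 0.127. In B6 Cdh13 read 16.5, 16.4 and 24.1 in knockout against 14.9, 15.1 and 16.8 in wild type (0.26 ± 0.25, not called), and the 2 effects did not differ past the threshold (0.68, interval −0.07 to 1.42). The other 3 probe sets of Cdh13 were below 16 on all arrays.

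Cdh15, M-cadherin, known from skeletal muscle precursors, was the only member called lower in knockout. It read 16.1, 14.8 and 18.6 in 129Sv knockout against 31.6, 28.6 and 30.4 in wild type, and 11.4, 10.9 and 17.1 in B6 knockout against 17.8, 29.4 and 21.2 in wild type. The groups did not overlap in either strain. It was 1.84-fold lower in 129Sv knockout (log2 −0.88 ± 0.24, limma adjusted p = 0.0313) and differed by −0.80 ± 0.24 in B6 (adjusted p = 0.0521). The 129Sv call was lost in 8 of 23 alternatives, among them leaving out knockout replicate 1 or 2 or any of the wild-type replicates (adjusted p 0.0697 to 0.118), while the average over strains kept its call in all 22 (−0.84 ± 0.17, limma adjusted p = 0.00307). Without B6 knockout replicate 3 the B6 difference was −1.01 (adjusted p = 0.0135).

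Cdh6, K-cadherin, a type II cadherin of developing kidney, had its difference mainly between strains. It read 18.5, 22.3 and 17.6 in 129Sv knockout against 58.1, 60.5 and 74.6 in B6 knockout, and 12.8, 14.3 and 17.2 in 129Sv wild type against 42.5, 45.8 and 30.5 in B6 wild type. Every 129Sv array was below every B6 array. Cdh6 was 3.31-fold lower in 129Sv than in B6 within knockout (log2 −1.73 ± 0.22, limma adjusted p = 4.36e-05) and at least 2.44-fold lower within wild type (−1.41 ± 0.22, adjusted p = 0.000598). Within each strain all knockout arrays lay above all wild-type arrays, but neither knockout effect was called alone (0.40 ± 0.22 in 129Sv, adjusted p = 0.316, and 0.71 ± 0.22 in B6, adjusted p = 0.0567). Their average was called (0.56 ± 0.15, limma adjusted p = 0.0238), and lost its call in 6 of 22 alternatives with adjusted p up to 0.101. The second Cdh6 probe set was below 16 on all arrays.

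The 250 bases before the start of the genes Cdh15 and Cdh6 are printed because these are the members called in a knockout comparison whose promoter is in the RefSeq table used here (GRCm38.p6, 4 of the 7 called members matched). Capitals mark E-boxes, CANNTG on either strand, the letters that Snail, Twist and Zeb factors and muscle regulators are known to recognise in part. The Cdh15 window is chr8:122848124-122848373 on the plus strand and the Cdh6 window is chr15:13173676-13173925 on the minus strand.
Cdh15: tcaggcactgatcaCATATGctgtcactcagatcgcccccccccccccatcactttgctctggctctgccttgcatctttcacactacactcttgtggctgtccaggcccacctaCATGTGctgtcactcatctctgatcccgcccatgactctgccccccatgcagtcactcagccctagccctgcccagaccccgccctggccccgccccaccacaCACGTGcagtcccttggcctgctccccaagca
Cdh6: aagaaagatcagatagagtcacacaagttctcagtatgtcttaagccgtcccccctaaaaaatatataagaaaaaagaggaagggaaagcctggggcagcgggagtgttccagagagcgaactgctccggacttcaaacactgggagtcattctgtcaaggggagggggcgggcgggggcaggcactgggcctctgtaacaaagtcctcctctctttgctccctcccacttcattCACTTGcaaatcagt
The Cdh15 window held 3 E-boxes and the Cdh6 window held 1, in windows of 62.0% and 51.2% G and C. CANNTG occurred in 66.2% of the 32851 promoter windows of the same length. The narrower CACCTG, read on both strands and itself a form of CANNTG, was in neither window and in 17.2% of all. ACANTGT, the core letters of a Dmrt1 motif with any middle base, read on both strands, was in neither window and in 6.47% of all.

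The remaining cadherins were not called in a knockout comparison. Cdh4, R-cadherin, read 13.4, 13.8 and 42.7 in B6 knockout against 10.4, 11.9 and 13.8 in B6 wild type, and the high value was replicate 3. Its B6 difference of 0.74 ± 0.36 was not called and was 0.19 without that array. Cdh16, a cadherin of kidney tubules, read 11.2, 18.9 and 24.8 in B6 knockout against 8.65, 9.08 and 7.23 in B6 wild type (1.07 ± 0.36, limma adjusted p = 0.0883), and 7.92, 18.7 and 7.04 in 129Sv knockout against 8.18, 9.19 and 13.6 in 129Sv wild type (0.01 ± 0.36). The B6 arrays did not overlap and the 129Sv arrays did. Cdh16 was above 16 on 1 array of 129Sv knockout, 2 of B6 knockout and 0 of wild type. It thus passed the limit for testing only through knockout arrays. Cdh10 and Cdh20, both type II cadherins, stayed between 8.23 and 30.5 on all arrays and were not called in any comparison.

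**Figure D2:**
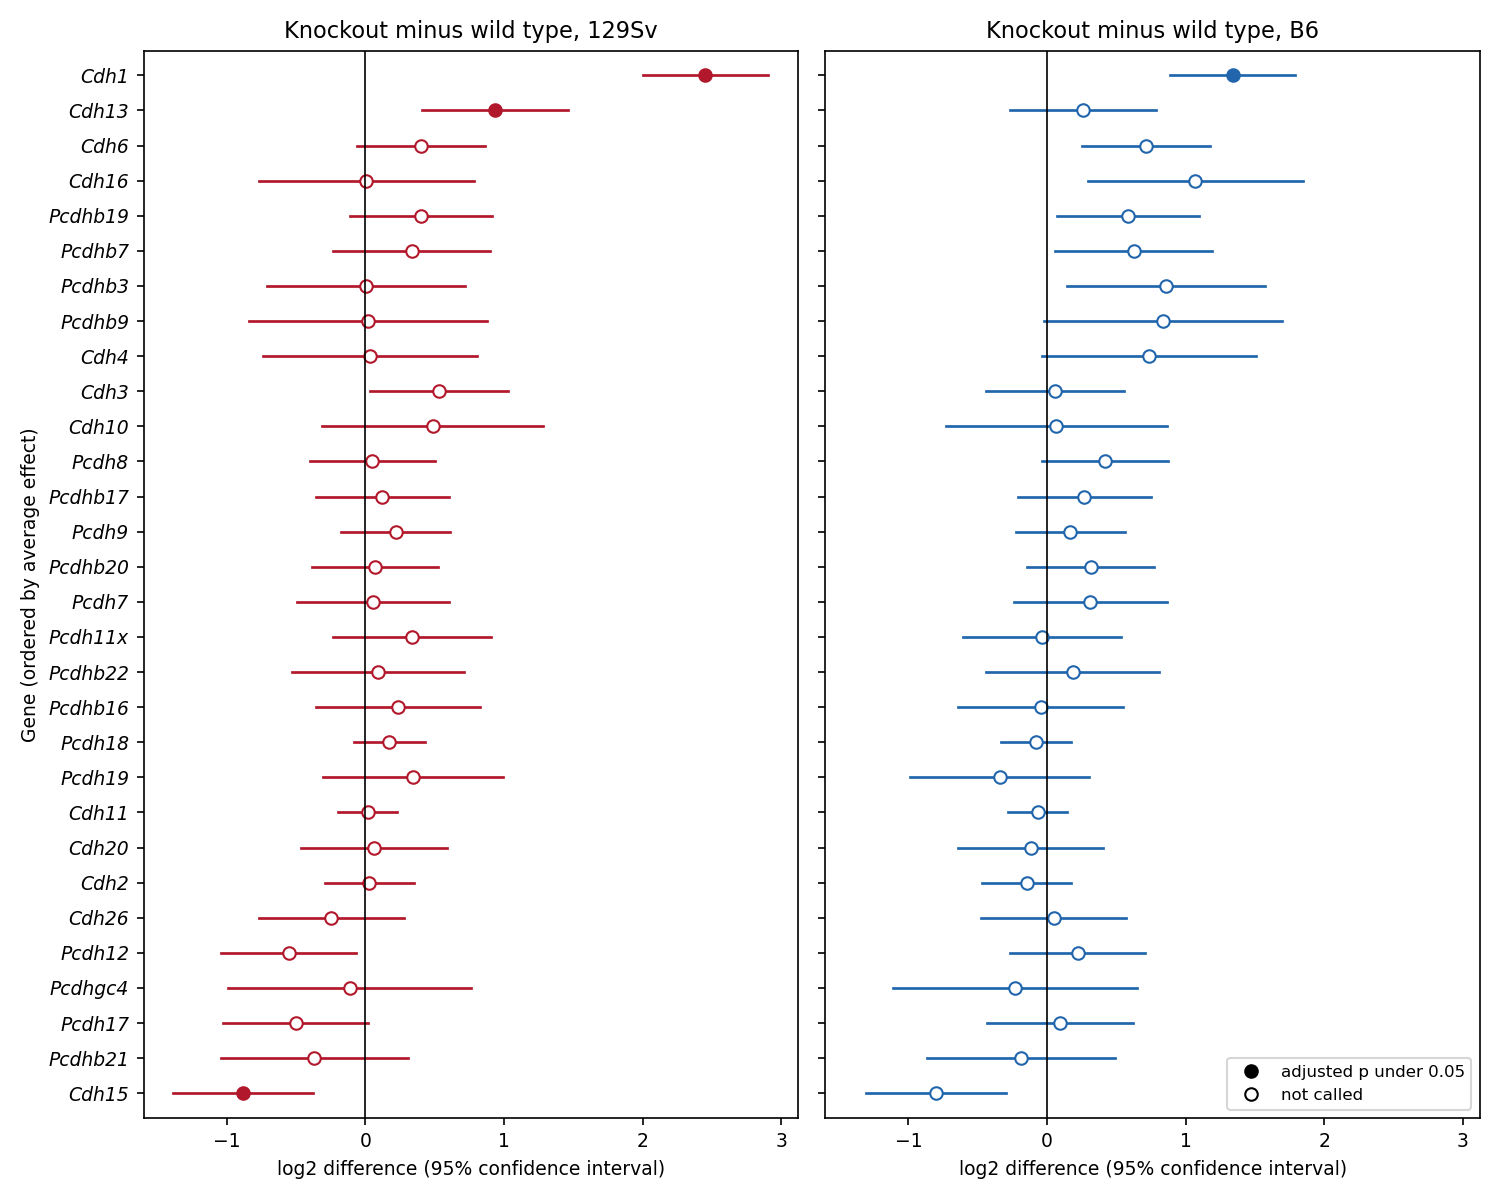
Log2 difference, knockout minus wild type, of the 30 tested cadherin and protocadherin genes in 129Sv (left) and B6 (right), with 95% confidence intervals from the limma fit. Filled points have an adjusted p under 0.05. Cdh1 lies at 2.45 in 129Sv and 1.34 in B6, Cdh13 at 0.94 and Cdh15 at −0.88 are called in 129Sv, and all 18 protocadherins are open points in both strains.

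None of the 8 tested non-clustered protocadherins, which differ from the clustered ones in being single genes spread over the genome, was called in either knockout comparison with limma, and 1 in 129Sv and 0 in B6 had an unadjusted p under 0.05, as did 21% and 24.8% of all genes. Their differences ran from −0.55 to 0.34 in 129Sv and from −0.34 to 0.42 in B6. Pcdh12, known from endothelium, read 194, 135 and 125 in 129Sv knockout against 211, 228 and 214 in wild type. These arrays did not overlap, and the difference of −0.55 ± 0.23 was not called (limma adjusted p = 0.170). It was called with the Actb ratio as a covariate (−0.65, adjusted p = 0.0203) and without both arrays of the highest ratio (−0.74, adjusted p = 0.0374). In B6 Pcdh12 read 157, 209.7 and 262 in knockout against 185, 135 and 218 in wild type (0.22 ± 0.23, and 0.04 without knockout replicate 3), and the effects differed by −0.77 ± 0.32 (adjusted p = 0.256). The endothelial markers (8 of 8) summed to 1445 to 1738 in 129Sv knockout against 1798 to 1882 in wild type, and to 2402 to 2939 in B6 knockout against 1967 to 2229 in wild type. The part of endothelium in the Pcdh12 values was not tested.

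Pcdh17, a member of the delta protocadherins, read 88.4, 115 and 110.0 in 129Sv knockout against 158, 130 and 155 in wild type. The arrays did not overlap, and the difference of −0.50 ± 0.25 was not called (limma adjusted p = 0.261). Pcdh8, known as paraxial protocadherin, averaged 916 ± 295 in 129Sv knockout and 849 ± 53.1 in wild type, and 918 ± 203 in B6 knockout and 677 ± 40.9 in wild type (SD, n = 3 each). Its spread was wider in knockout than in wild type in both strains, and neither effect was called (0.05 ± 0.21 and 0.42 ± 0.21, and 0.25 in B6 without knockout replicate 3). Pcdh19, whose gene is linked in humans to an epilepsy, read 43.4 on B6 knockout replicate 3 and 75.7 to 134 on the other 11 arrays, and its B6 difference of −0.34 was 0.07 without that array. Pcdh9, also a delta protocadherin, read 283 to 382 in 129Sv knockout against 228 to 340.0 in wild type, and 369 to 451 in B6 knockout against 300.4 to 400.4 in wild type. Pcdh11x, of the same group and on the X chromosome, read 162 to 198 in 129Sv knockout against 99.6 to 179 in wild type, and 193 to 244 in B6 knockout against 148 to 324 in wild type. The knockout differences of Pcdh7, Pcdh9 and Pcdh11x lay between −0.04 and 0.34 in both strains.

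None of the 10 tested clustered protocadherins was called in either knockout comparison with limma, and 0 in 129Sv and 3 in B6 (Pcdhb3, Pcdhb7 and Pcdhb19) had an unadjusted p under 0.05, against 21% and 24.8% of all genes. Their differences ran from −0.37 to 0.40 in 129Sv, with a median of 0.08, and from −0.23 to 0.86 in B6, with a median of 0.29. The B6 values rested in part on 1 array, and without it they ran from −0.47 to 0.50 with a median of 0.20. B6 knockout replicate 3 was the highest of all 12 arrays for 5 of the 9 tested Pcdhb genes (Pcdhb3, Pcdhb7, Pcdhb9, Pcdhb16 and Pcdhb22). Summed over the 9 genes, the intensity was 1148 on that array, 665 and 577 on the other B6 knockout arrays and 540 to 626 on the B6 wild-type arrays. In 129Sv the sum was 592 to 876 in knockout against 683 to 795 in wild type.

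Pcdhb3 read 66.2, 51.3 and 165 in B6 knockout against 45.8, 44.5 and 46.3 in B6 wild type, without overlap. Its difference of 0.86 ± 0.33 was not called (limma adjusted p = 0.132) and was 0.36 without replicate 3. In 129Sv Pcdhb3 read 89.5, 84.9 and 61.4 in knockout against 101, 67.8 and 67.7 in wild type (0.00 ± 0.33). Pcdhb7 read 67.6, 49.2 and 116 in B6 knockout against 38.7, 60.3 and 45.1 in wild type, and 90.8, 87.3 and 78.7 in 129Sv knockout against 68.9, 72.3 and 62.6 in wild type. Only the 129Sv arrays did not overlap, and neither difference was called (0.63 ± 0.26 in B6 and 0.33 ± 0.26 in 129Sv). Without B6 knockout replicate 3 the B6 difference of Pcdhb7 was 0.29. Pcdhb19 read 37.3, 35.8 and 43.5 in B6 knockout against 19.1, 28.8 and 31.3 in wild type, and the B6 difference of 0.58 ± 0.24 was not called (adjusted p = 0.151), although the arrays did not overlap. Pcdhb20 read 160 to 269 in 129Sv knockout against 181 to 223 in wild type, and 189.9 to 252 in B6 knockout against 134 to 192 in wild type. Pcdhb22 read 80.7 to 133 in 129Sv knockout against 100.2 to 104 in wild type, and 57.0, 62.1 and 144 in B6 knockout against 68.4 to 73.6 in wild type. Both overlapped between genotypes in each strain, as did Pcdhb16, Pcdhb17 and Pcdhb21, which read 28.7 to 137 over all arrays.

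Across the 12 arrays the 36 pairs of tested Pcdhb genes had a median correlation of log2 values of 0.58, against 0.06 for the 399 other pairs of tested members. Without B6 knockout replicate 3 the medians were 0.53 and 0.05. Pcdhb9 was below 16 on all 129Sv arrays, so its correlations over the 12 arrays carry its strain difference. Its highest value, 157, was on B6 knockout replicate 3, as it was for Pcdhb3, Pcdhb7, Pcdhb16 and Pcdhb22. The 8 pairs of Pcdhb9 with the other Pcdhb genes ran from −0.26 to 0.08, and from −0.85 to −0.36 without that array. The 28 pairs without Pcdhb9 had a median of 0.65 (0.57 without that array). The arrays share strain, genotype and RNA quality, and probe sets of similar sequences can share targets, so this is a description only. Pcdhgc4, the tested member of the Pcdhg array, read 8.41 on B6 knockout replicate 3 and 13.4 to 36.7 on the others.

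**Figure D3:**
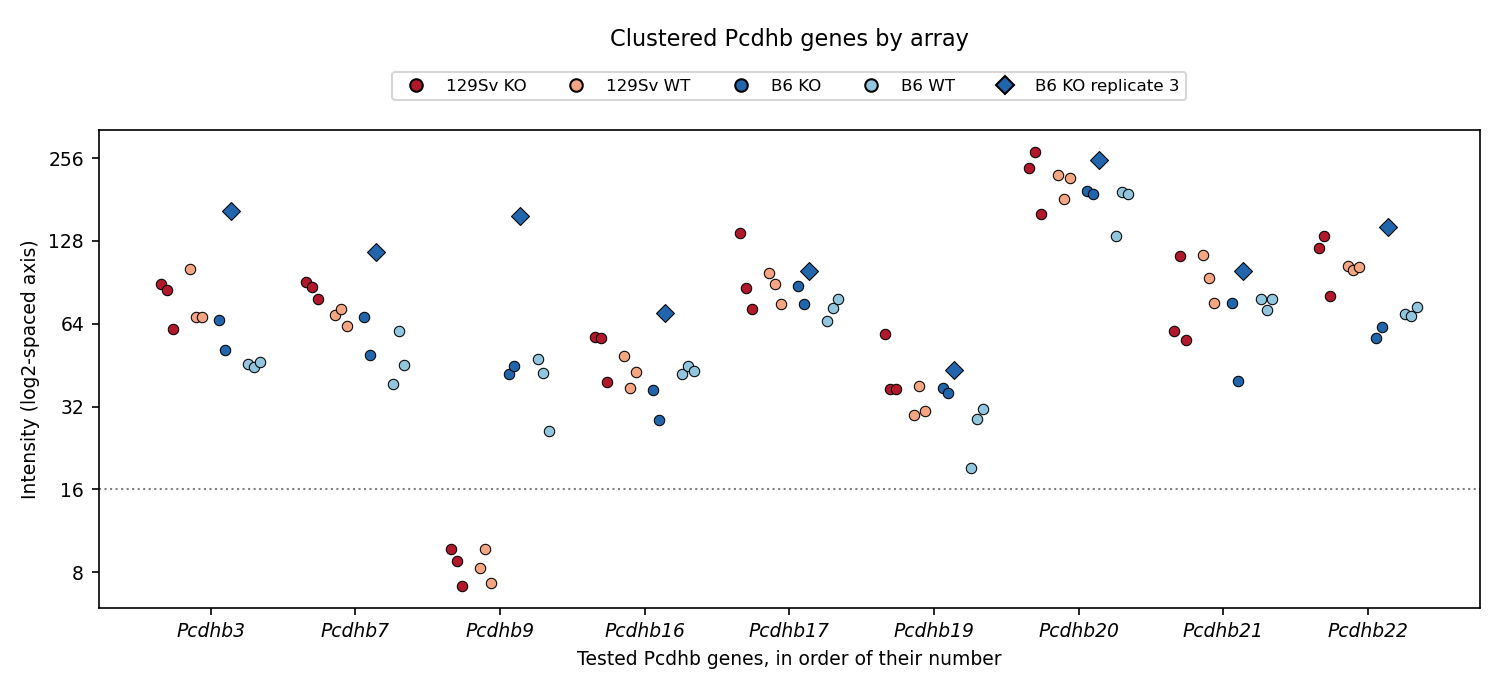
Intensity (log2-spaced axis) of the 9 tested Pcdhb genes on the 12 arrays, with 129Sv knockout, 129Sv wild type, B6 knockout and B6 wild type from left to right within each gene; the diamond is B6 knockout replicate 3 and the dotted line marks an intensity of 16. The diamond is the highest point for Pcdhb3, Pcdhb7, Pcdhb9, Pcdhb16 and Pcdhb22, and Pcdhb9 lies below 16 on all 6 arrays of 129Sv.

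Between strains, Pcdhb9 and Cdh6 were lower and Cdh26 higher in 129Sv in both genotypes. Within wild type 4 of 30 members were called (Cdh26 higher in 129Sv, Cdh6, Pcdh18 and Pcdhb9 lower), where 16.1% of all tested genes were called. Within knockout 4 of 30 were called (Cdh1 and Cdh26 higher, Cdh6 and Pcdhb9 lower), where 34.1% of all genes were called. Both counts include Pcdhb9 and Cdh26, which passed the limit for testing only through the strain in which they read higher. The strains did not overlap for 9 members in wild type (40.7% of all genes) and for 5 in knockout (43.8% of all genes). Without B6 knockout replicate 3, Pcdhb3 and Pcdhb22 were also called within wild type, both higher in 129Sv (2857 of 12726 tested genes called). They were called too when only the wild-type groups were fitted (2860 genes called). Probe sets that do not represent their gene were called within knockout for Pcdh9 (−0.75, limma adjusted p = 0.0305) and Pcdhb16 (0.92, adjusted p = 0.0224), whose representing probe sets were not. Intensities between strains can differ where a probe lies on a sequence variant, and this was not tested.

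Pcdhb9 read 9.72, 8.83 and 7.13 in 129Sv knockout against 42.1, 45.1 and 157 in B6 knockout, and 8.28, 9.71 and 7.31 in 129Sv wild type against 47.6, 42.5 and 26.0 in B6 wild type. It was below 16 on all 129Sv arrays and above 16 on all B6 arrays, so it passed the limit for testing only through B6. It was at least 4.18-fold lower in 129Sv within knockout (fitted log2 difference −2.98 ± 0.40, limma adjusted p = 7.95e-05) and at least 2.34-fold lower within wild type (−2.16 ± 0.40, adjusted p = 0.00245). Without B6 knockout replicate 3 the fitted difference within knockout was −2.36 (adjusted p = 1.73e-05). Its neighbours in the RefSeq annotation, Pcdhb8 and Pcdhb10, were below 16 on all 12 arrays, with highest values of 5.43 and 13.7.

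Cdh26 read 23.6, 21.0 and 20.2 in 129Sv knockout against 14.6, 11.9 and 9.54 in B6 knockout, and 20.5, 37.1 and 22.0 in 129Sv wild type against 11.2, 10.9 and 12.2 in B6 wild type. It was above 16 on all 129Sv arrays and below 16 on all B6 arrays, and passed only through 129Sv. It was at least 1.35-fold higher in 129Sv within knockout (fitted 0.87 ± 0.25, limma adjusted p = 0.0142) and at least 1.60-fold higher within wild type (1.16 ± 0.25, adjusted p = 0.00575). Without both arrays of the highest Actb ratio the call within knockout was lost (adjusted p = 0.0970). Pcdh18, a delta protocadherin, averaged 1299 ± 27.2 in 129Sv wild type and 1791 ± 31.2 in B6 wild type (SD, n = 3 each), 1.38-fold lower in 129Sv (−0.46 ± 0.12, limma adjusted p = 0.0163). Within knockout it averaged 1479 ± 243 in 129Sv and 1696 ± 152 in B6 (−0.21 ± 0.12, not called). Its wild-type call was lost without 129Sv wild-type replicate 3 or B6 wild-type replicate 1 or 2, and with the number in the titles of the 129Sv samples as a covariate (adjusted p up to 0.124).

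By likeness over the 12 arrays, the pair of members with the highest correlation of log2 values was Pcdhb9 and Cdh6 (r = 0.94, and 0.94 without B6 knockout replicate 3), and the pair with the lowest was Cdh6 and Cdh26 (r = −0.87, and −0.83 without it). All of these differ between the strains, and the correlations are descriptions over arrays that share strain. The member most like Cdh1 was Cdh13 (r = 0.78, and 0.79 without B6 knockout replicate 3).

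Beta-catenin, epithelial alpha-catenin and p120-catenin, which bind the tail of classical cadherins, were not called in either strain, where Cdh1 rose in both. Neural alpha-catenin was called lower in both strains. Of 18 tested catenins and junction partners, 0 were higher and 2 lower in 129Sv knockout, and 0 higher and 3 lower in B6 knockout, where 4.07% of all genes were higher and 4.24% lower in 129Sv, and 2.45% higher and 5.45% lower in B6. These shares of all genes also stand behind the lists that follow. In the limma fit 5 of the 18 had an unadjusted p under 0.05 in 129Sv and 10 in B6. Such a p was found for 21% and 24.8% of all genes. Beta-catenin (Ctnnb1) differed by −0.11 ± 0.12 in 129Sv and 0.10 ± 0.12 in B6, and p120-catenin (Ctnnd1) by 0.10 ± 0.10 and −0.01 ± 0.10. Alpha-catenin of epithelia (Ctnna1) differed by −0.03 ± 0.12 in 129Sv and 0.39 ± 0.12 in B6 (limma adjusted p = 0.0621), and plakoglobin (Jup) by 0.33 ± 0.11 and 0.09 ± 0.11 (adjusted p = 0.0917 and 0.634). The neural alpha-catenin Ctnna2 read 49.9, 54.8 and 53.3 in 129Sv knockout against 77.0 to 109 in wild type, and 49.0, 44.0 and 44.6 in B6 knockout against 92.1, 136 and 144 in wild type. All knockout arrays were below all wild-type arrays (−0.84 ± 0.20, limma adjusted p = 0.0165 in 129Sv, and −1.41 ± 0.20, adjusted p = 0.000569 in B6). The 129Sv call was lost without knockout replicate 1 or wild-type replicate 1 or 2 (Ctnna2 adjusted p up to 0.132 over the alternatives), and the B6 call was kept in all 24.

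Nectin1, an adhesion molecule of the immunoglobulin family at the same junctions, was lower in 129Sv knockout (−0.80 ± 0.23, limma adjusted p = 0.0426) and differed by −0.37 in B6; its 129Sv call was lost in 15 of 22 alternatives, 10 of which left out 1 array. Delta-catenin 2 (Ctnnd2) was lower in B6 knockout, with 42.6, 40.3 and 8.43 against 86.0, 92.4 and 149 in wild type (−2.12 ± 0.46, limma adjusted p = 0.0108). Without B6 knockout replicate 3, which held the value of 8.43, Ctnnd2 differed by −1.35 (adjusted p = 0.00368), and without B6 wild-type replicate 3 it was not called. Plakophilin 2 (Pkp2), a desmosome protein, read 464, 555 and 407 in B6 knockout against 718, 760 and 851 in wild type (−0.71 ± 0.13, adjusted p = 0.00287) and differed by 0.12 ± 0.13 in 129Sv. With the mean of its probe sets the B6 difference of Pkp2 was −0.38 and was not called (adjusted p = 0.161). The 2 effects on Pkp2 differed by 0.84 ± 0.18 (limma adjusted p = 0.0399), a call lost in 13 of 23 alternatives, among them leaving out any 1 of the 129Sv arrays.

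Among desmosomal cadherins and desmoplakin, 3 of the 7 on the array were tested; 1 was called in 129Sv knockout and 2 in B6 knockout (8.31% and 7.90% of all genes). Desmocollin 2 (Dsc2), a desmosomal cadherin, read 206, 244 and 214 in 129Sv knockout against 139, 110 and 161 in wild type, and 297, 265 and 213 in B6 knockout against 152, 174 and 175 in wild type. The knockout arrays were above the wild-type arrays in both strains, and both effects were called (0.71 ± 0.18, limma adjusted p = 0.0226, and 0.62 ± 0.18, adjusted p = 0.0475). The Dsc2 call was lost in 4 of 24 alternatives in 129Sv and in 15 of 24 in B6, with adjusted p up to 0.129. Desmoglein 2 (Dsg2), its adhesive partner, rose in B6 knockout (0.99 ± 0.24, adjusted p = 0.0185) and differed by 0.45 ± 0.24 in 129Sv. Without B6 knockout replicate 3 the B6 difference of Dsg2 was 0.75 and was not called (adjusted p = 0.0594), nor was it without B6 wild-type replicate 1 or 3. Desmoplakin (Dsp) was not called.

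Of 13 tested genes of the wider cadherin superfamily, 1 was higher and 1 lower in 129Sv knockout and none was called in B6 with limma, where 4 had an unadjusted p under 0.05 (called among all genes were 8.31% in 129Sv and 7.90% in B6, and 24.8% had such a p in B6). Cdhr1, a cadherin-related protein known from photoreceptors, read 320, 244 and 217 in 129Sv knockout against 10.8, 14.9 and 11.0 in wild type, and 21.3, 20.3 and 16.2 in B6 knockout against 7.37, 11.6 and 15.4 in wild type. It was at least 16.1-fold higher in 129Sv knockout (fitted log2 difference 4.41 ± 0.27, limma adjusted p = 2.73e-07). Cdhr1 read below 16 on all wild-type arrays, so it passed the limit for testing only through knockout arrays. Calsyntenin 3 (Clstn3), a synaptic member, was lower in 129Sv knockout (−0.95 ± 0.25, limma adjusted p = 0.0274), a call lost without knockout replicate 1 or 2 or wild-type replicate 1 or 3.

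Of 13 tested transcription regulators of Cdh1, 2 were higher and 1 lower in 129Sv knockout, and 2 higher and 3 lower in B6 knockout, against 8.31% and 7.90% of all genes called in either direction. Snai1, a repressor of Cdh1, read 101, 86.9 and 83.8 in 129Sv knockout against 45.3, 58.1 and 52.1 in wild type, and 83.3, 80.3 and 106 in B6 knockout against 63.1, 57.5 and 48.1 in wild type. It was higher in knockout in both strains, as Cdh1 was (0.81 ± 0.19, limma adjusted p = 0.0135, and 0.67 ± 0.19, adjusted p = 0.0401). The Snai1 call was lost in 4 of 24 alternatives in 129Sv and in 15 of 24 in B6, among them leaving out B6 knockout replicate 3 (0.55, adjusted p = 0.108). Ovol2, a repressor of mesenchymal genes, is the other gene counted as higher, but it read above 16 on only 1 array of 129Sv knockout and 2 of B6 knockout. It read 13.6 to 17.8 in 129Sv knockout against 5.28 to 7.76 in wild type, and 15.6 to 18.6 in B6 knockout against 5.74 to 7.76 in wild type. Ovol2 passed the limit for testing only through the knockout arrays, and its wild-type values are all below 16, so its call and its fitted difference support no size of change. Snai3, a relative of Snai1, was lower in both (−0.97 and −1.06 ± 0.27, limma adjusted p = 0.0346 and 0.0236), with the call lost in 8 of 22 alternatives in each strain.

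Grhl2, an activator of Cdh1 in epithelia, read 60.6, 97.1 and 54.1 in B6 knockout against 271, 290 and 605 in B6 wild type, and 578, 625 and 764 in 129Sv knockout against 973, 1229 and 997 in 129Sv wild type. It was lower in B6 knockout (−2.41 ± 0.28, limma adjusted p = 0.000113), was not called in 129Sv (−0.70 ± 0.28, adjusted p = 0.146), and the effects differed by 1.70 ± 0.39 (adjusted p = 0.0474). The call in B6 was kept in all 24 alternatives, and that of the difference was lost in 18 of 23, with B6 knockout replicate 3 left out among them (1.54, adjusted p = 0.0711). Grhl3, of the same family, was lower in B6 knockout (−0.97 ± 0.27, adjusted p = 0.0430), a call lost in 13 of 24 alternatives, without B6 knockout replicate 3 among them (adjusted p = 0.104). Snai2, Twist1, Zeb1 and Zeb2, further repressors of Cdh1, were not called in either strain. Twist1 and Zeb1 had an unadjusted p under 0.05 in 129Sv in the limma fit. Of the 13 regulators, 8 had such a p in 129Sv and 6 in B6, where 21% and 24.8% of all genes had one.

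**Figure D4:**
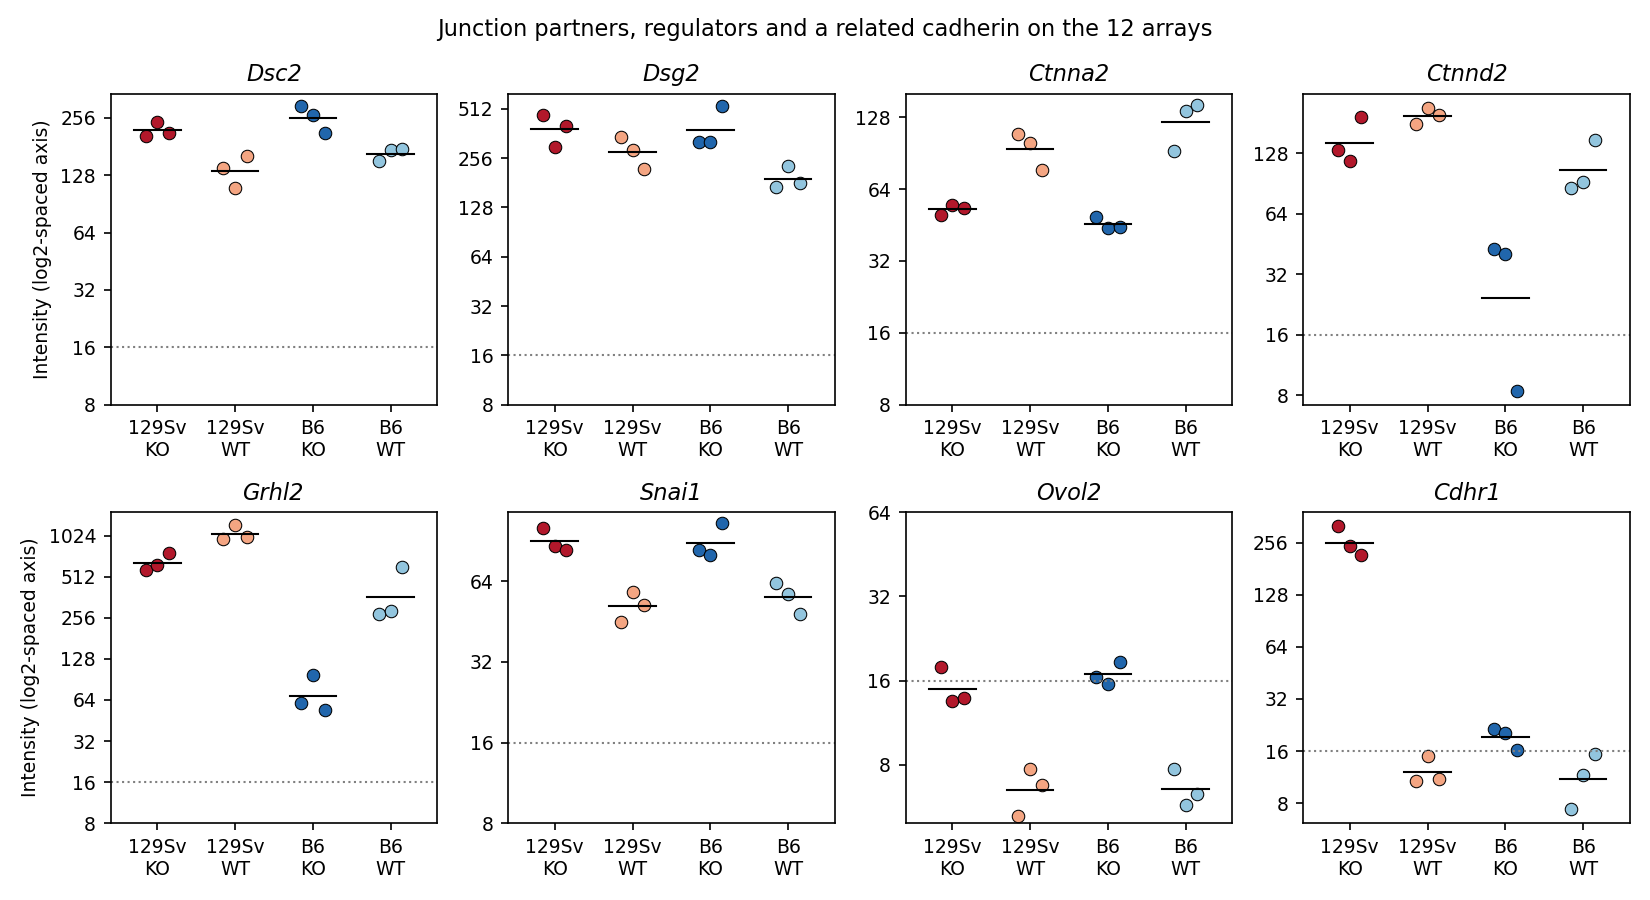
Intensity (log2-spaced axis) of 8 partner, regulator and related genes on each of the 12 arrays, with 129Sv knockout, 129Sv wild type, B6 knockout and B6 wild type from left to right. Points are arrays, bars are means of log2 values and the dotted line marks an intensity of 16. Dsc2 and Snai1 lie higher and Ctnna2 and Grhl2 lower in knockout than in wild type in both strains, although Grhl2 was called in B6 only, and Cdhr1 reaches 217 to 320 only in 129Sv knockout.

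Of 14 tested regulators of the clustered protocadherin genes, 1 was higher in 129Sv knockout and 1 lower in B6 knockout (4.07% of all genes higher in 129Sv, 5.45% lower in B6). Dnmt3b, a DNA methyltransferase, read 3819.5, 4221 and 3430 in 129Sv knockout against 1128, 961 and 953 in wild type (1.91 ± 0.13, limma adjusted p = 5.26e-07), and differed by 0.00 ± 0.13 in B6. Dnmt3a, of the same family, was lower in B6 knockout (−0.63 ± 0.18, limma adjusted p = 0.0411), a call lost in 14 of 24 alternatives, without B6 knockout replicate 3 among them (adjusted p = 0.0563). Ctcf, the factor that loops the cluster's promoters to its enhancers, differed by −0.07 ± 0.10 in 129Sv and −0.12 ± 0.10 in B6, and the 10 tested clustered protocadherins were not called in either strain. Of 12 tested genes of cadherin shedding and cleavage, none was called in 129Sv knockout with limma (0 at an unadjusted p under 0.05, where 21% of all genes had one) and 1 was lower in B6 knockout (5.45% of all genes), the protease Mmp9 (−1.24 ± 0.29, limma adjusted p = 0.0183), a call lost without B6 wild-type replicate 2 or 3 and in 5 of 23 alternatives in all.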

How the data were processed

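Biotin-labelled total RNA of 12 testis samples was hybridised to Affymetrix arrays, per the labels. The deposited values are linear intensities, which the authors made with GCRMA, per the submitters' processing notes. GCRMA subtracts a background estimated from each probe's bases, quantile-normalises the arrays and combines the probes of a set; the version used is not stated in the labels. Log2 was taken here. Of the probe sets, 34958 were annotated to 1 gene, 932 to several and 9211 to none. With limma 3.58.1 in R 4.3.3 the means of the 4 groups were fitted together (lmFit, eBayes with trend, 8 residual and 6.71 prior degrees of freedom) for genes that reached log2 4 (intensity 16) on 3 or more arrays. Groups came from the sample labels; no other sample columns were in the table. Arrays have no read depth, and precision is limited by the 3 arrays of each group.

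Named were all members called in any comparison, the 12 members with the highest mean log2 value, Cdh1, Cdh2, Cdh3, Cdh4, Cdh6, Cdh11, Cdh13 and Cdh16, and partner genes called in a knockout comparison; other members were named after their values were seen. Members and gene lists were chosen with earlier results of these data known. Same-numbered replicates did not deviate together (correlations −0.47 to 0.07), and the labels do not state a pairing, so none was used. The fit was tested on simulated data, drawn independently with the same spread in every group. It found 18 to 30% of changes of log2 0.5, 72 to 74% of log2 1 and 96 to 98% of log2 2. Unchanged genes made up 2.67 to 7.93% of its calls. The real arrays differ more than these draws, as B6 knockout replicate 3 does, so these shares may not hold for them. Alternatives changed the filter, probe set rule, scaling, pseudocount, variance trend, covariates and the arrays used.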

Additional observations from a re-analysis of the deposited data

How the results depend on the processing

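Of 367 values of single members under the alternatives, for 16 called results, 334 kept direction and call, 33 kept direction and lost the call, and 0 reversed. Cdh1 kept its call in all of them, between 2.32 and 2.72 in 129Sv knockout and between 1.07 and 1.59 in B6 knockout. Alternatives in which a gene was no longer tested were left out of these counts and not taken as lost calls. Among them was the filter at log2 of 6 for Cdh6, Cdh13, Cdh15, Cdh26 and Pcdhb9. The difference of the Cdh1 effects had an adjusted p of 0.0220 without B6 wild-type replicate 3 and of 0.0772 to 0.192 under the other alternatives. Cdh13 averaged over strains lost its call in 9 of 21 alternatives, and Pcdhb9 in wild type lost it with the title number as a covariate (adjusted p = 0.0528).

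With the filter at a log2 value of 6, which left 16 members, 1 member was called in each of 129Sv knockout, the average of the strains, the strains in wild type and the strains in knockout. In B6 knockout 2 members were called without a filter, 3 with the mean of the probe sets of a gene, 2 with a pseudocount of 16, 3 without the variance trend and 2 without both arrays of the highest Actb ratio, an alternative chosen after seeing the data, against 1 in the fit reported. All genes called in B6 knockout were 840 to 1013 under these alternatives, against 1005 in the fit reported. With the Actb ratio as a covariate 2 members were called in the average. Leaving out each of the 12 arrays in turn gave 1 to 3 members in 129Sv knockout, 1 to 2 in B6 knockout, 0 to 1 in the difference of the effects, 2 to 5 in the average, 3 to 6 between strains in wild type and 4 to 8 in knockout, with 8 without B6 knockout replicate 3. All genes called in these fits were 626 to 1562 in 129Sv knockout, 431 to 1276 in B6 knockout and 41 to 300 in the difference. They were 1250 to 1890 in the average, 1074 to 2857 between strains in wild type and 3177 to 4318 in knockout. Without B6 knockout replicate 3 the strain comparison in knockout had 3863 of 12726 genes called. With the replicate number as a block the counts were 3, 1, 0, 4, 4 and 4, as without it. The labels do not say what a shared replicate number marks, although in B6 the titles of replicates 1 and 2 share a leading number between knockout and wild type. Fitting only the groups compared gives no value for the difference or the average of the effects. With the title number of the 129Sv samples as a covariate, which is partly confounded with genotype, all genes called were 347 in 129Sv knockout, 20 in the difference of the effects, 974 in the average and 1225 between strains in wild type, against 1058, 167, 1718 and 2054 without it. Intensities near 16, as for Cdh13, Cdh15 and Cdh26, are close to background, which limits their fold changes.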

Other observations

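The Pcdha genes were represented only by probe sets annotated to several genes and were not tested. Of 6 such probe sets, which hold 14 genes not measured otherwise, 5 stayed below 9 on all arrays. The other one, annotated to 14 genes, read 14.1 to 17.8 in 129Sv knockout against 12.8 to 19.1 in 129Sv wild type, and 17.3, 20.9 and 43.7 in B6 knockout against 15.1 to 21.0 in B6 wild type. The value of 43.7 was on B6 knockout replicate 3, the array that was also highest for 5 of the 9 tested Pcdhb genes.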
